A study of Mus musculus with 6 samples.

Results

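Epithelial cells of the pancreas, whether acinar, ductal or endocrine, are held together by junctions and carry simple-epithelium keratins. The genes described here are a list of 45 such genes: simple keratins, adhesion molecules, tight junction and desmosome components, polarity proteins, epithelial transcription and splicing factors, and membrane proteases with their inhibitors and sorting proteins. They were found by symbol in a table of 14681 genes, which held 38 of them. The other 7 (Krt19, Cdh16, Cldn1, Cldn4, Crb3, Grhl2 and Spint1) have no expression value here. Those of them with a promoter window enter only the promoter counts below. RNA came from dorsal pancreas of C57BL/6 mouse embryos at embryonic day 18.5, in 3 control and 3 knockout samples. The extraction protocol labels the knockout Dpy30∆P. Dpy30 encodes a shared subunit of the Trithorax group (TrxG) complexes that methylate histone H3. The name of the deposited table mentions Pdx1 and not Dpy30, which the sources used here do not explain. Neither the Cre line nor the genotype of the controls is given in the sources used here.

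Keratins 8 and 18 pair into the intermediate filaments of simple epithelia, with keratins 7 and 19 typical of ducts. E-cadherin and EpCAM link neighbouring cells, claudins and occludin seal the space between them on the scaffold proteins ZO-1 and ZO-3, and desmosomes tie keratin filaments to the membrane. The Par, Crumbs and Lgl proteins set the apical and basolateral sides on which secretion of digestive enzymes into the duct lumen depends. Grainyhead and ETS factors switch on many of these genes, and the repressors ZEB and SNAI, which bind E-box sequences, switch off some of them, E-cadherin above all.

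The measurements were the authors' deposited results of a DESeq2 comparison, one row per gene, with no value per library. The spread between embryos is therefore seen only through each gene's standard error, and no sample values can be shown. A fold change in that table is shrunken toward 0, and the unshrunken value reconstructed from it is given here with its standard error (SE) where it returns the deposited p. All 37 members with a p had such a value. Of these, 23 had an SE of at most 1 log2 unit and are called well determined. The table does not state its numerator. Negative values are read here as lower in the knockout, by the usual convention, and if controls were the numerator all directions would be opposite. Dpy30 itself, at a mean normalized count of 29.4, was at 0.50 ± 1.66 (SE) on the reconstructed log2 scale, with an interval from -2.75 to 3.75, and does not settle this.

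One member, Krt18, passed the authors' test: in the authors' deposited table it was lower, with an adjusted p of 0.00315. None of the 37 was higher at an adjusted p under 0.05. At an unadjusted p under 0.05, 3 members were lower (Krt18, Dsp and Ap1m2) and 1 was higher (Pard3). Among all genes of the authors' deposited table, 0.743% passed at an adjusted p under 0.05 (0.479% lower and 0.264% higher), and 2.70% lay on each side at an unadjusted p under 0.05. By sign alone, 27 of the 37 members were below 0, against 45.2% of all genes with a p. Among abundant members, of the 10 with a mean normalized count of at least 300, 9 were below 0, against 50.9% of all genes that abundant. From 100 to 300 counts, 9 of 14 members were below 0, against 51.2% of all genes, and from 50 to 100 counts 3 of 3, against 48.1%. Below a mean count of 50, 6 of 10 members were below 0, against 38.6% of all genes at that level. The members share the same 6 libraries and much of the same tissue compartment, so they are not independent of each other, and no test was made over them.

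The median reconstructed log2 fold change was -0.45 over the 23 well determined members, from -1.69 for Ap1m2 to 1.47 for Pard3. Over all 37 with a value, whatever the SE, it was -0.46. The median was -0.71 when values were centred on cytosolic ribosomal protein genes, and -0.0066 over 7 members with a larger assumed prior scale, under which most members no longer returned their p. The median over all 5710 well determined genes of the table was -0.04. Of the well determined members 18 of 23 were below 0, against 52.8% of well determined genes. In bulk tissue, fewer epithelial cells and less RNA per epithelial cell cannot be told apart. The wide intervals limit what can be said of single genes. For 30 of the 37 members the 95% interval held both 0 and a 2-fold fall. A 2-fold fall lay outside the interval for 4 members, namely Tjp1, Spint2, Jup and Pard3.

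**Figure D1:**
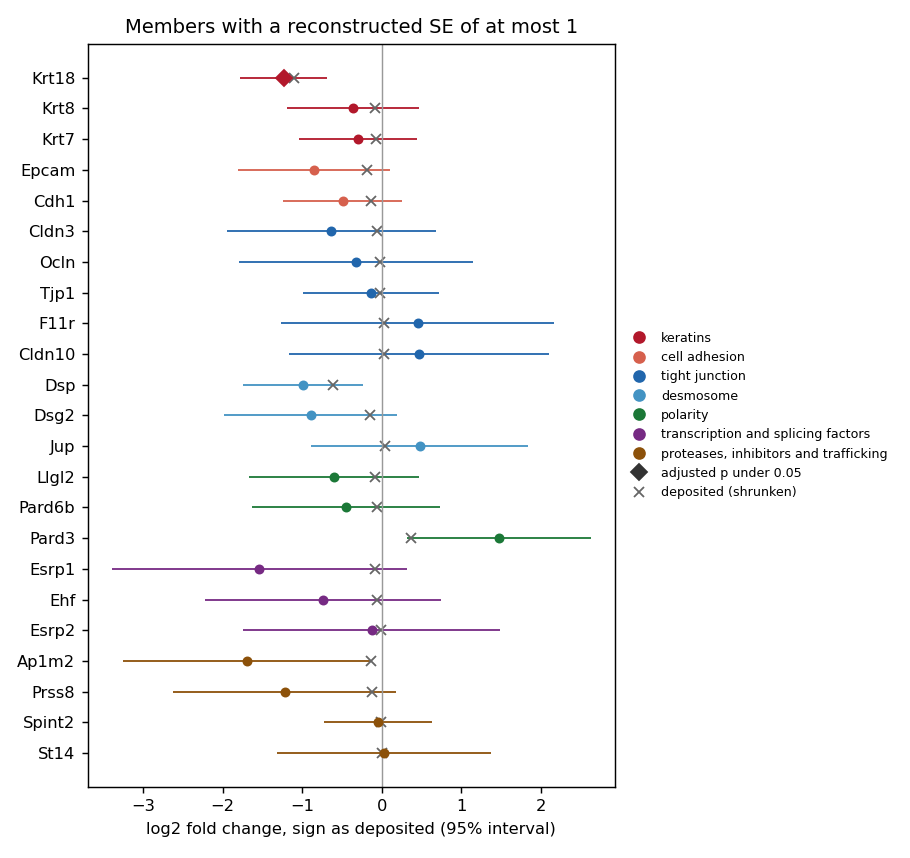
Reconstructed log2 fold changes (x axis, in log2 units with the deposited sign) with 95% intervals for the 23 well determined members, coloured by role; the diamond is the called gene Krt18 and crosses show the shrunken values that the authors deposited. Intervals of Krt18, Dsp and Ap1m2 lie below 0 and that of Pard3 above 0; the other 19 cross 0.

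**Figure D2:**
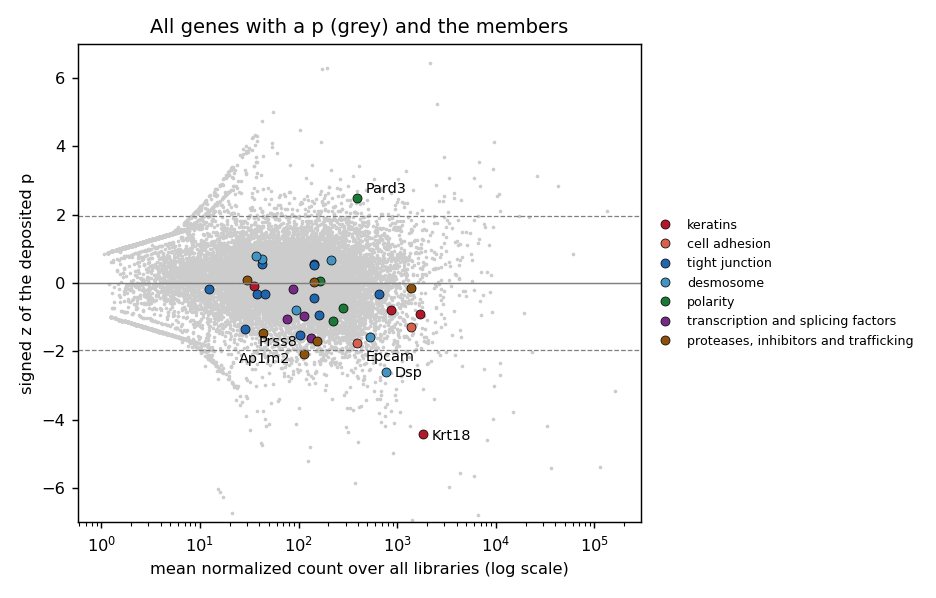
Signed z of the deposited p (y axis) against the mean normalized count over all libraries (x axis, log scale) for all genes with a p (grey) and the 37 members (coloured by role); dashed lines mark an unadjusted p of 0.05, and 8 genes beyond 7 are not drawn. Krt18 stands lowest among the members, and the members above a count of 300 lie below 0 except Pard3.

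The regulatory sequence next to these genes was examined for the E-box that ZEB and SNAI proteins recognise, CAGGTG on either strand. Windows from 250 bases before to 50 bases after the start site were taken from RefSeq (GRCm38.p6), which gave 38 windows for 29 of the 45 members. The E-box lay in 25 of the 38 member windows (65.8%), against 20.2% of all 32851 windows. For members in the deposited table it lay in 22 of 33 windows (66.7%), against 19.0% of the 14296 windows of table genes. Counted by gene, 21 of 29 members held it in at least 1 window, against 22.6% of 27025 genes. Some members have several overlapping windows, so the count by gene is the safer one. Cdh1, the E-cadherin gene, is not among the genes with a counted match. As 16 members had no window, absence from the matches does not show that a promoter lacks the E-box. Median GC content was 60.7% in member windows and 59.7% in windows of genes in the table. The 6 windows below show the called keratin Krt18, its filament partner Krt8, the surface marker Epcam, the members Dsp and Ap1m2 with an unadjusted p under 0.05, and, for contrast, Jup, whose window holds no match. They run 5′ to 3′ on the strand of the gene, with the E-box in capitals.
Krt18: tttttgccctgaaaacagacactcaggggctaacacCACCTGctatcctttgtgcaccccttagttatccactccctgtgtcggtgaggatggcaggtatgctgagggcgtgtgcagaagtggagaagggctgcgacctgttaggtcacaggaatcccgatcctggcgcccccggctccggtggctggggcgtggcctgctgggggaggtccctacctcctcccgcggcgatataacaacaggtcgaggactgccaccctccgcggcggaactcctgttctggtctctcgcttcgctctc
Krt8: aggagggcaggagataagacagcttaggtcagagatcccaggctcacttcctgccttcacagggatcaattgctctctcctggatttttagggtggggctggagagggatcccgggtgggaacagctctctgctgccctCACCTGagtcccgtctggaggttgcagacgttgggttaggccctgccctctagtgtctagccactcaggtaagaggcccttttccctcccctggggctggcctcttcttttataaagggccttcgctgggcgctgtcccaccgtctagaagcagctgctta
Epcam: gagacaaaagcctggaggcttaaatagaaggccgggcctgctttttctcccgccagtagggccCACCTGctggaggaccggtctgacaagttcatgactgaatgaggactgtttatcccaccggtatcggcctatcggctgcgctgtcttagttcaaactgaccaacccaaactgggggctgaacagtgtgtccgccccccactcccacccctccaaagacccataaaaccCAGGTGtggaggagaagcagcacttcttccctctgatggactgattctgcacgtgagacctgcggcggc
Dsp: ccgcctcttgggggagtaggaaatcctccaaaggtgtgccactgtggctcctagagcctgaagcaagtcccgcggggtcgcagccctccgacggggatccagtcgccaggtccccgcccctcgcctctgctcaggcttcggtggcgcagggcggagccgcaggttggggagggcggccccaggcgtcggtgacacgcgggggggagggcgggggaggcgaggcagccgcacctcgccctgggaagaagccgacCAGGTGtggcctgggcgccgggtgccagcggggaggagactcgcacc
Ap1m2: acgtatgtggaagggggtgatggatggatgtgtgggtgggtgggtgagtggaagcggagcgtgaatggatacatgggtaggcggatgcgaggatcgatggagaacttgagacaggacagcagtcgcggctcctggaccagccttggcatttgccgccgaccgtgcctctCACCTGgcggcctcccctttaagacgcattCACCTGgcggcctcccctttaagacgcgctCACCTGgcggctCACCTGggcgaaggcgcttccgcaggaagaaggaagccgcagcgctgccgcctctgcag
Jup: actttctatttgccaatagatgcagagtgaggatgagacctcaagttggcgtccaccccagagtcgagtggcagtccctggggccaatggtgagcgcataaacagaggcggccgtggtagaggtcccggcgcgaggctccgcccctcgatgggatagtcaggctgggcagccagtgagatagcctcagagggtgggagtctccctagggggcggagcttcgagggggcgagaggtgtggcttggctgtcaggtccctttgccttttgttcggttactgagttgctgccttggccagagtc

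These windows lie at chr15:102027966-102028265 (plus strand) for Krt18, chr15:102004293-102004592 (minus) for Krt8, chr17:87635729-87636028 (plus) for Epcam, chr13:38151044-38151343 (plus) for Dsp, chr9:21312284-21312583 (minus) for Ap1m2 and chr11:100397741-100398040 (minus) for Jup. Ap1m2 holds 4 copies, at -81, -51, -21 and -9 from the start site by the first base of each match. Epcam holds 2, at -187 and -19. Krt18 holds 1 at -214, Krt8 holds 1 at -111 and Dsp holds 1 just inside the transcript, at 4. No window of Pard3, the member that was higher at an unadjusted p under 0.05, is printed. A Pard3 window (chr8:127299362-127299661, plus) also holds the E-box, at -220, -203 and -166. Of the 45 matches in all member windows, 23 begin within the 100 bases before a start site and 8 after it, with overlapping windows counted apart. A match says only that these letters are present, and not which protein, if any, binds them. Of the members with a window and a p, 16 of 18 with an E-box were below 0 and 2 of 6 without one. Of all genes with a p, 45.2% were below 0, and these were not split by the E-box. Some of the members' signs are undetermined, as for Krt23 at -0.09 ± 1.28 (SE). No link between the E-box and the sign can be drawn from these counts. Only 3 well determined members with a window lack the E-box, and the difference was not tested.

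Other gene lists placed these shares. Acinar enzyme windows held the E-box in 64.7% (11 of 17), endocrine granule gene windows in 36.8% (7 of 19) and ductal gene windows in 38.5% (5 of 13). Mesenchyme windows held it in 10.0% (1 of 10) and endothelial windows in 10.0% (1 of 10). Of windows of related genes outside the list, it lay in those of other adherens and tight junction genes in 27.3% (6 of 22), other keratins in 28.6% (2 of 7), other polarity genes in 26.1% (6 of 23), other epithelial factors in 40.0% (6 of 15) and other desmosome and hemidesmosome genes in 62.5% (5 of 8). By gene, the share was 72.4% for members, 64.7% for acinar enzymes (11 of 17) and 40% for endocrine granule genes (6 of 15). It was 50% for ductal genes and for other epithelial factors (5 of 10 each), and 4 of 4 for other desmosome and hemidesmosome genes. Other adherens and tight junction genes stood at 37.5%, other keratins and other polarity genes at 33.3%, endothelium at 12.5% and mesenchyme at 11.1%. By window the acinar list stood at nearly the same share as the members, and no difference between lists was tested. Further motifs were searched on both strands, with no overlap between matches of different motifs. The grainyhead motif AACCNGTT lay in 2 member windows (5.26%; Rab25 and Cgn), against 2.09% of all windows. The ETS core CCGGAAG lay in 8 (21.1%), those of Cldn12, Cldn7, Crb3 and Spint1, against 8.86% of all windows. By gene it lay in 4 of 29 members (13.8%), against 9.93% of all genes with a window. Crb3 and Spint1 are not in the deposited table. For members in the table the ETS core lay in 5 of 33 windows (15.2%), against 14.9% of all windows of table genes. By gene it lay in 2 of these 25 members (8%), against 17.3% of table genes. The HNF1 motif, searched by its palindromic consensus, lay in 0 of 38 member windows and in 3 of all windows.

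**Figure D3:**
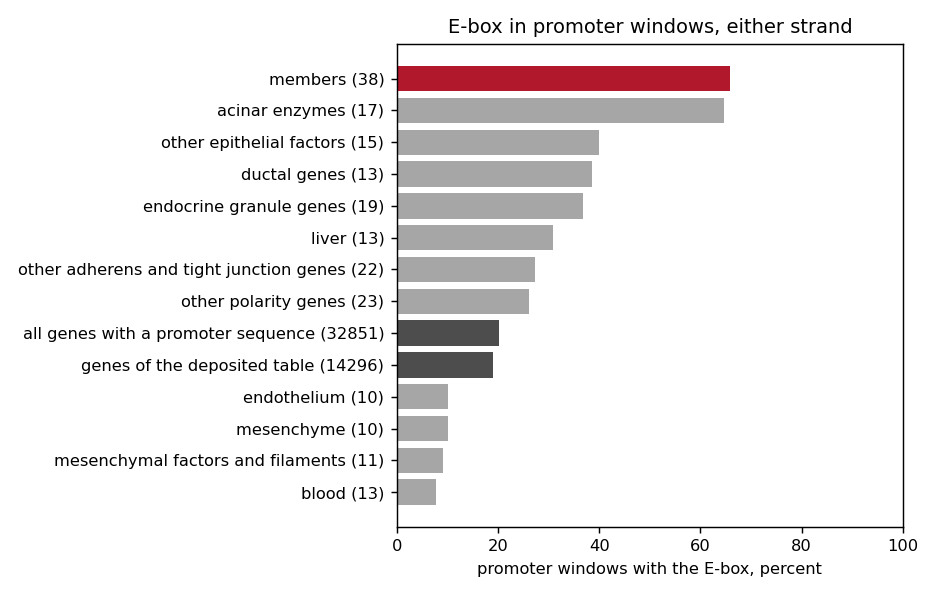
Share of promoter windows (x axis, percent) that hold the E-box CAGGTG on either strand, for the members (red), 2 background sets (dark) and other gene lists (light) with at least 10 windows; the number of windows is in brackets. Members stand at 65.8% and acinar enzymes at 64.7%, above the 20.2% of all windows, and mesenchyme at 10.0%.

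Levels placed the keratins first. Per kilobase of annotated exon, Krt18 had 1274 mean normalized counts and Krt8 had 864, at percentiles 99.3 and 99.1 of the table. E-cadherin (Cdh1) at 305 and Spint2, an inhibitor of membrane serine proteases, at 300.5 counts per kilobase came next. Epcam followed at 177, Cldn3 at 129 and Krt7 at 122. Cgn (cingulin, which links tight junctions to the cytoskeleton) was lowest at 2.07. These are means over controls and knockouts together, and 30 of the 38 members lay above the median of all genes, 15.4 counts per kilobase. The members found made up 0.349% of all normalized counts.

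**Figure D4:**
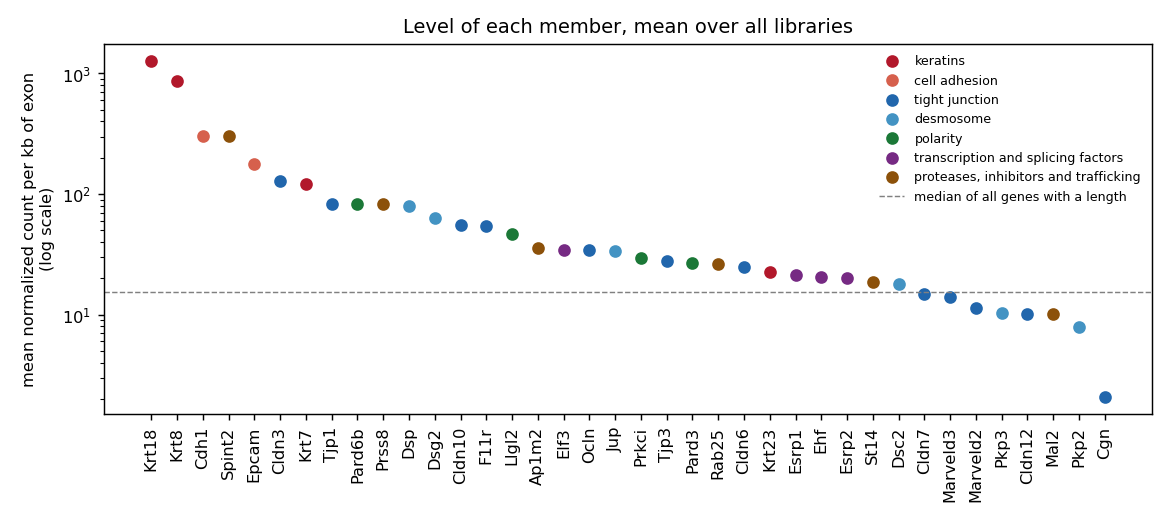
Mean normalized count per kilobase of annotated exon (y axis, log scale), averaged over all libraries by the authors, for the 38 members found (x axis), coloured by role; the dashed line is the median of all genes with a length. Krt18 and Krt8 lead at 1274 and 864, and Cgn is lowest at 2.07.

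Keratins had 4 members with a p, all below 0. Krt18 (Entrez gene 16668; chromosome 15, 102028180 to 102032027, plus strand, GRCm38) had a mean normalized count of 1830. Its log2 fold change in the authors' deposited table was -1.10 ± 0.29 (posterior SD; adjusted p = 0.00315), and the reconstructed value was -1.23 ± 0.28 (SE), a 2.35-fold decrease with a 95% interval from -1.78 to -0.69. It had the 36th smallest p of the table. Krt8 (chromosome 15, 101996698 to 102004482, minus strand), which encodes the type II partner of keratin 18 and lies 23.7 kb away, had nearly the same count, 1692. Its reconstructed value was -0.36 ± 0.43 (SE), with an interval from -1.20 to 0.47, and the authors' deposited table gives it an adjusted p of 1.00. The intervals of the 2 partners overlap, and their difference could not be tested without values per library. Krt8 has an annotated pseudogene (Krt8-ps), and whether reads were split between them was not tested. Krt7, a keratin of ducts, was at -0.29 ± 0.38 (SE). Krt23 had a mean count of 35.0 and an interval from -2.60 to 2.43, which does not limit its change to within several-fold.

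Adhesion molecules were represented by Epcam and Cdh1. Epcam, a surface glycoprotein present on nearly all simple epithelia, was at -0.85 ± 0.49 (SE; the authors' deposited table gives an adjusted p of 0.881). E-cadherin, the calcium-dependent adhesion protein of adherens junctions, was at -0.49 ± 0.38 (SE). Neither passed the test, and the intervals reached 0.10 and 0.26.

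Tight junction genes were the largest group, with 11 members that had a p, 8 of them below 0. None had an unadjusted p under 0.05. The 5 well determined ones had a median of -0.13. Tjp1, the scaffold ZO-1, was among the most tightly bounded members at -0.13 ± 0.43 (SE), with an interval from -0.98 to 0.72. Among the membrane proteins, the claudin Cldn3 was at -0.63 ± 0.67 and occludin (Ocln) at -0.32 ± 0.75 (SE). Cldn10, a pore-forming claudin, at 0.47 ± 0.83 and F11r, the adhesion molecule JAM-A, at 0.45 ± 0.88 (SE) lay above 0. The smallest p of the group was that of Tjp3, the scaffold ZO-3, at -1.73 ± 1.11 (SE; unadjusted p = 0.126 in the authors' deposited table). Cldn7, Cldn12, Marveld2 (tricellulin), Marveld3 and Cgn had mean counts from 12.5 to 45.7 and SEs over 1. Cldn6, an embryonic claudin with a mean count of 42.8, was 1 of the 295 genes listed without a p.

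Desmosome genes had 3 values below 0 and 3 above. Dsp encodes desmoplakin, which anchors keratin filaments to the desmosome. It was at -0.99 ± 0.38 (SE) on the reconstructed log2 scale, with an interval from -1.74 to -0.24. In the authors' deposited table its unadjusted p was 0.00935 and its adjusted p 0.406, so it did not pass. Dsg2, the desmosomal cadherin of simple epithelia, was at -0.89 ± 0.55 (SE). Jup (plakoglobin, shared between desmosomes and adherens junctions) was at 0.48 ± 0.70 (SE). Its interval, from -0.89 to 1.84, determines no direction. Dsc2, a desmocollin, was at -1.13 ± 1.44, and the plakophilins Pkp2 and Pkp3 were at 1.30 ± 1.81 and 1.18 ± 1.49 (SE), too uncertain for a direction.

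Polarity genes held the member with the largest positive z. Pard3, the scaffold of the Par complex, had a mean count of 391 and was at 1.47 ± 0.59 (SE), with an interval from 0.32 to 2.63. In the authors' deposited table its shrunken value was 0.37 ± 0.85 (posterior SD), with an unadjusted p of 0.0128 and an adjusted p of 0.474, and it did not pass. Of its partners in that complex, Pard6b was at -0.45 ± 0.60 and the atypical protein kinase C gene Prkci at 0.09 ± 1.16 (SE); both intervals overlap that of Pard3, and the differences were not tested. Llgl2, the basolateral antagonist of the Par complex, was at -0.60 ± 0.54 (SE). The polarity group thus held values on both sides, with 2 of 4 below 0.

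All 4 epithelial factors with a p were below 0, and none had an unadjusted p under 0.05. Esrp1, a splicing regulator that keeps epithelial exon choices, was at -1.54 ± 0.95 (SE). Its paralog Esrp2 was at -0.13 ± 0.82. The ETS factor Ehf was at -0.74 ± 0.76, and the related Elf3 at -1.84 ± 1.74 (SE) with a mean count of 76.7. The intervals of Esrp2, from -1.74 to 1.48, and of Elf3, from -5.26 to 1.58, each held a 2-fold change in either direction.

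Membrane proteases, their inhibitor and sorting proteins ranged from -1.69 to 0.03 over 4 well determined genes. Ap1m2 (chromosome 9), the epithelial subunit of the clathrin adaptor that sorts cargo to the basolateral membrane, had the lowest well determined value, -1.69 ± 0.80 (SE), with an interval from -3.26 to -0.12. In the authors' deposited table it did not pass, with an unadjusted p of 0.0382 and an adjusted one of 0.723. Prss8 (prostasin), a membrane-anchored serine protease, was at -1.22 ± 0.72 (SE; unadjusted p = 0.0909 in the authors' deposited table). St14 (matriptase), which acts with prostasin, was at 0.03 ± 0.69 (SE), and their inhibitor Spint2 at -0.05 ± 0.34 (SE), with an interval from -0.72 to 0.63. Spint2 was about as abundant as E-cadherin per kilobase and had the second smallest SE of the members after Krt18. Rab25, an apical recycling GTPase, was at -2.87 ± 1.89, and Mal2, of apical transport, at 0.15 ± 1.71 (SE), with mean counts of 43.7 and 29.9.

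Related genes outside the list had medians closer to 0. Of 22 other adherens and tight junction genes with a p, 13 were below 0, 2 were lower at an unadjusted p under 0.05 and 0 were called, and the median over 15 well determined genes was -0.11. Patj, of the Crumbs polarity complex, was at -0.98 ± 0.42 (SE), and Afdn (afadin), which links nectins to actin, at -0.70 ± 0.34 (SE). Of 12 other desmosome and hemidesmosome genes, 7 were below 0, with 2 lower and 1 higher at an unadjusted p under 0.05 and 0 called, and the median over 9 was -0.22. The higher one was Dsc3, a desmocollin of stratified epithelia with a mean count of 37.1, with no determined size; the authors' deposited table gives it an adjusted p of 0.0532. Lamb3, a laminin of hemidesmosomal basement membrane, was at -1.91 ± 0.90 (SE). Of 16 other polarity genes, 10 were below 0 and 0 were called, with a median of -0.23 over 10. Cdc42, the GTPase that activates the Par complex, was at -1.20 ± 0.36 (SE; the authors' deposited table gives an adjusted p of 0.0772). Of 11 other epithelial factors, 7 were below 0 and 0 were called, with a median of -0.34 over 4. Foxa3 was at -1.59 ± 0.84 and Spdef at -2.13 ± 1.14 (SE). Means weighted by inverse variance were -0.52 for other epithelial factors and -0.42 for other polarity genes, beside -0.51 for the members. They were -0.28 for other desmosome and hemidesmosome genes and -0.14 for other adherens and tight junction genes. The 6 other keratins in the table had a summed mean count of 186, 3 of them below 0 and 0 called, with no well determined value.

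Lists that mark acinar and endocrine cells had lower medians than the members. The median reconstructed log2 fold change was -1.87 for 18 acinar enzyme genes (13 called lower of 19 with a p), -1.88 for 8 endocrine granule genes (4 called lower of 12) and -0.76 for 9 ductal genes (0 called of 13). At an unadjusted p under 0.05, 2 ductal genes were lower and 0 higher. These were Pkhd1, at -1.66 ± 0.67 (SE), and Bicc1, with no determined size. Clps and Cpa1, secreted by acinar cells, were at -3.19 ± 0.27 and -2.60 ± 0.27 (SE), and the endocrine genes Ins2 and Chga at -3.56 ± 0.42 and -2.74 ± 0.55 (SE). The acinar list was not uniform: 16 of 19 were below 0, and 2 were above 0 at an unadjusted p under 0.05, Try4 at 1.20 ± 0.36 and Cela1 at 0.56 ± 0.28 (SE). The members' median of -0.45 lay between the medians of these lists and those of the other cell types described next. Whether the members differ from those lists was not tested.

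Lists of mesenchyme, mesothelium, endothelium, liver and blood lay near or above 0. Mesenchyme genes had a median of 0.43, with 14 of 15 above 0 and 0 called, and mesenchymal factors and filaments a median of 0.57, with 8 of 12 above 0 and 0 called. At an unadjusted p under 0.05, 4 of the first list and 1 of the second were higher, and 0 were lower. In these 2 lists, Col3a1 was at 0.63 ± 0.20, Pdgfra at 0.82 ± 0.34, Vim (vimentin, the mesenchymal filament) at 0.65 ± 0.23 and Acta2 at 1.00 ± 0.61 (SE). The E-box repressor genes Zeb1 and Zeb2 in the second list were at -0.30 ± 0.46 and -0.17 ± 0.40 (SE), with intervals from -1.21 to 0.61 and from -0.95 to 0.61, and Twist1 and Twist2, also below 0, had SEs over 1. Mesothelium, which also carries keratins 8, 18 and 19, had 4 of 8 genes below 0 and a median of -0.06. At an unadjusted p under 0.05, 1 mesothelium gene (Bnc1, with no determined size) was higher and 0 were lower. Upk3b was at 0.45 ± 0.39, Msln at 0.21 ± 0.56 and Wt1 at -0.26 ± 0.51 (SE). Mean counts of 1097 for Upk3b, 401 for Msln and 408 for Wt1 show that mesothelial RNA was present, and its part in the keratin values was not tested. Endothelial genes had a median of 0.04. All 12 liver genes with a p were above 0, 4 of them at an unadjusted p under 0.05 and 0 called. Apoa1 was at 2.20 ± 0.80 (SE), and Alb had a mean count of 3336. Of 9 blood genes, 8 were above 0 and 1, Gata1, was called higher. Gata1 had a mean count of 29.4 and no determined size. Hepatocytes express keratins 8 and 18 as well, and the part of liver RNA in the values was not tested.

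**Figure D5:**
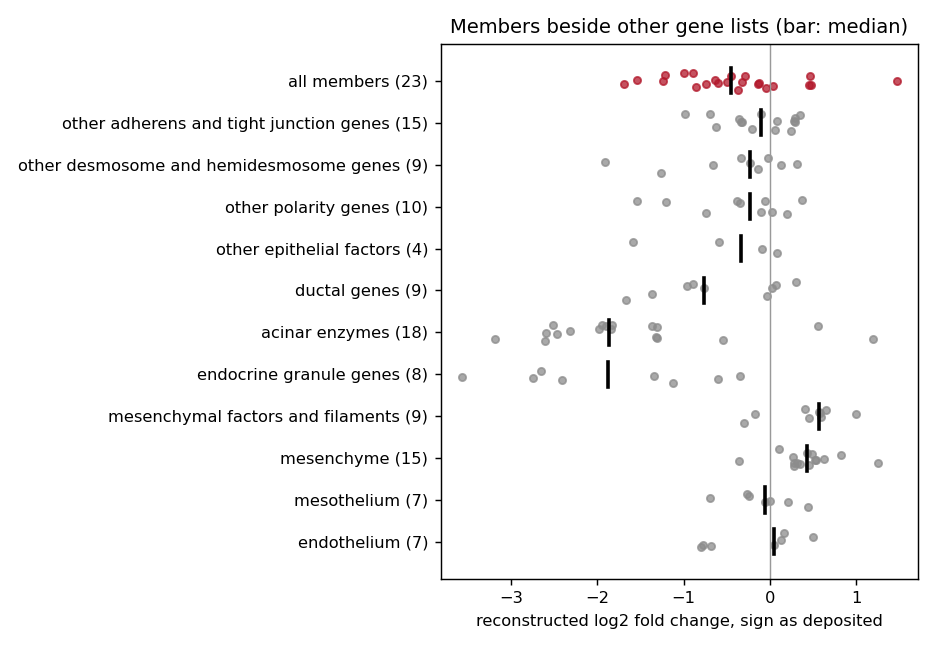
Reconstructed log2 fold changes (x axis, in log2 units with the deposited sign) of well determined genes in each list, with the number of genes in brackets; each point is a gene and each bar the median. Members (red) have a median of -0.45, between acinar enzymes at -1.87 and mesenchyme at 0.43.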

How the data were processed

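The samples were grouped by their titles. The submitters' processing notes name Trimmomatic, Salmon and DESeq2 as tools and GRCm38 (mm10) as the build; no source used here gives their versions, annotation, filters or design formula. The authors deposited 1 table with, per gene, a normalized count averaged over the libraries (a signal with no value per library, so that depth is unknown), a log2 fold change with its error in log2 units, and p-values before and after adjustment.

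Fold changes were taken as modes under a Cauchy prior with a quadratic likelihood, which fixes the unshrunken value and its SE. The scale that returned most p-values was 0.31025; for 90.8% of tested genes z matched to within 0.1, and only these have values. The arithmetic was tested on simulated data. Intervals are 95% normal intervals. A call is an adjusted p under 0.05 in the authors' DESeq2 test over 12108 genes; no gene was tested again. Lists are described by counts and medians. Named genes are the members, fixed cell markers and, from other lists, those with the smallest p; further called acinar and endocrine genes are counted only. Try4, Cela1, Zeb1, Zeb2, Twist1 and Twist2 were named after their values were seen. Members, lists and rules were chosen with earlier results of these data known. Per the labels, 3 embryos of each kind were used; the p-values reflect the variation among those samples alone. Exon lengths are merged GENCODE M21 exons (GRCm38). Python 3.11.15, scipy 1.17.1 and matplotlib 3.10.9 were used. Alternatives were other thresholds, filters, scalings, prior scales and a shorter promoter window.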

Additional observations from a re-analysis of the deposited data

How the results depend on the processing

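The count of called members (1 lower, 0 higher) was the same under all 6 alternatives: adjusted p under 0.1 or 0.01, adjustment over every gene with a p or over genes with a mean count of at least 50, and centring on all well determined genes or on 68 cytosolic ribosomal protein genes. The count of members below 0, 27, was 21 with a mean count of at least 50 and 30 when centred on ribosomal protein genes, where 3 members turned negative. That centring subtracts 0.27 from every gene, with 61 lower and 8 higher calls in place of 58 and 32 over all genes; the members' median became -0.71. The other centring gave 31 lower and 11 higher calls. Both recomputed calls only for genes with a reconstructed value, so fewer genes were tested. With the larger prior scale planned, the median was -0.0066 over the 7 well determined members that still returned their p; with the smaller one 2 did, and no median was taken. Under the other alternatives, including leaving out Krt18 or any role group and using every member with a value whatever its SE, the median stayed within 0.132 of -0.45. The E-box was in 20 member windows in place of 25 when the 50 bases after the start were left out. No paired analysis was possible because the deposited table holds no values per library, and for the same reason no replicate could be left out. Low counts limit most members: the median SE was 1.74 below a mean count of 50 and 0.404 from 300 upward.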
